A study of Mus musculus with 12 samples.

Results

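The genes described here are the nuclear-encoded subunits of the mitochondrial respiratory chain and of the ATP synthase, with the complex I assembly factors whose symbols begin with Ndufaf. They were chosen by symbol alone: every gene whose symbol begins with Nduf, Uqcr or Atp5, every gene of the Cox4 to Cox8 series, and Sdha, Sdhb, Sdhc and Sdhd. This gave 92 of the 23420 genes counted. Complex I has 36 of them, complex II 4, complex III 8, complex IV 20 and the ATP synthase 15. Another 7 are Ndufaf assembly factors, and Atp5s and Atp5sl are 2 genes with an Atp5 symbol that are no subunits of the enzyme. Ndufa4, a known subunit of complex IV, was placed with complex IV. So were Ndufa4l2, as its paralog, and Cox7a2l, which takes part in joining complexes III and IV. Genes of these complexes with other symbols, such as Cyc1, are outside the rule.

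Total RNA was sequenced from confluent mouse colonic monolayers grown in vitro and from colonic crypts, the glands of the colonic epithelium. All 12 libraries are labelled as wild-type (WT) mouse colon. There were 3 libraries each of monolayers at day 3, day 4 and day 5, against 3 libraries of crypts. Crypts came from a mouse aged 6 to 10 weeks, and the monolayers came from crypt cells that were first grown on collagen and then replated on scaffolds cross-linked in a gradient. The whole monolayer was lysed for RNA. The labels give a resistance across the monolayer of 526 ± 56 ohm cm2 on day 3, then 623 ± 15 on day 4 and later 407 ± 53 on day 5, with the kind of error not named. No label says whether the libraries of a group came from separate mice or cultures, so the p-values below measure only the spread between these libraries, which may be technical. Since each day was a separate set of libraries, a difference between days cannot be told apart from a difference between cultures.

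Complexes I and II pass electrons from NADH and succinate to coenzyme Q, complex III passes them to cytochrome c, and complex IV passes them to oxygen. Complexes I, III and IV pump protons, and the ATP synthase uses the gradient to make ATP. Complexes I, III and IV and the ATP synthase also include core subunits encoded in mitochondrial DNA. None of the 13 symbols looked for, such as mt-Nd1 and mt-Atp6, was among the genes counted. Every value below is therefore that of a nuclear transcript. Surface cells of the colon are known to oxidise butyrate from the gut lumen as a main fuel, and this oxidation runs through the respiratory chain.

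The libraries differed in depth and in other measures that moved with the groups. Counts assigned to genes were 5456913 to 14290393 in monolayers and 4518314 to 9939045 in crypts, and a floor of 3 counts was 0.210 to 0.550 CPM in monolayers and 0.302 to 0.664 CPM in crypts. Reads in no gene were 38.7 to 42.8% of all reads in monolayers and 45.6 to 49.0% in crypts, and reads in genes were 41.8 to 43.5% in monolayers and 31.7 to 35.6% in crypts, with no overlap in either. Their part in the results was not tested. Malat1, a nuclear RNA, took 5.65 to 12.2% of gene counts in monolayers, with the highest values at day 5, and 2.02 to 2.34% in crypts. On the second principal component, which held 10.5% of the variance, day 5 replicate 1 stood apart at 93.2, where the other 11 libraries lay between -36.4 and 26.3. With library totals in place of TMM scaling factors, the median log2 fold change of monolayers over crypts over all genes moved to -0.21, a shift of more than 0.1, and the calls over all genes were 5120 lower and 3094 higher, where TMM gave 4220 and 3943.

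Cell type markers moved with the groups as well (levels as CPM scaled with TMM factors). Of 8 markers of the colonic epithelium, 4 were called higher in monolayers, 3 lower and 1 neither, with none at 0. Their summed level was 11647 to 15332 CPM in monolayers and 9499.8 to 11027 CPM in crypts. For 8 absorptive colonocyte markers it was 1225 to 2860.0 CPM in monolayers and 5752 to 8395 CPM in crypts, and all 8 were lower. For 9 goblet cell markers it was 20.8 to 84.5 CPM in monolayers and 32564 to 49242 CPM in crypts, and all 9 were lower. For 10 leukocyte markers it was 21.5 to 45.5 CPM in monolayers and 20.7 to 40.3 CPM in crypts, with Emr1 at 0 in all 12 libraries. Of the 6 leukocyte markers tested, 5 were lower in monolayers and 1 was higher. The 5 red blood cell markers were at 0 in all monolayer libraries and summed to 0.541 to 4.61 CPM in crypts. Of the 8 absorptive colonocyte markers, 7 were called lower at day 5 against crypts (background 28.9%). At day 5 against day 3, 7 of the 8 were called higher (background 9.9%). The part of these shifts in the subunit levels was not tested.

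Most of the set was lower in monolayers than in crypts. In bulk libraries such as these, fewer cells of a type and less RNA per cell cannot be told apart. Of the 92 genes, 87 had enough counts to be tested, and 76 of these 87 were lower in monolayers (edgeR adjusted p under 0.05 over all 12863 genes tested), where the background share of all tested genes called lower was 32.8%. One gene, Ndufa4l2, was higher, against a background of 30.7% of all tested genes. The other 10 were not called. The median log2 fold change of the 87 was -0.80, and that of all tested genes was -0.03. With library totals all 77 calls were kept and the median was -0.98. By complex, 31 of 36 tested subunits fell for complex I, all 4 for complex II, all 8 for complex III, 14 of 15 for complex IV and 14 of 15 for the ATP synthase. The median log2 fold changes were -0.73 for complex I, -0.82 for complex II, -0.83 for complex III, -1.02 for complex IV and -0.83 for the ATP synthase, and differences between complexes were not tested. The 5 untested genes were Cox4i2, Cox6a2, Cox7b2, Cox8b and Cox8c.

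**Figure D1:**
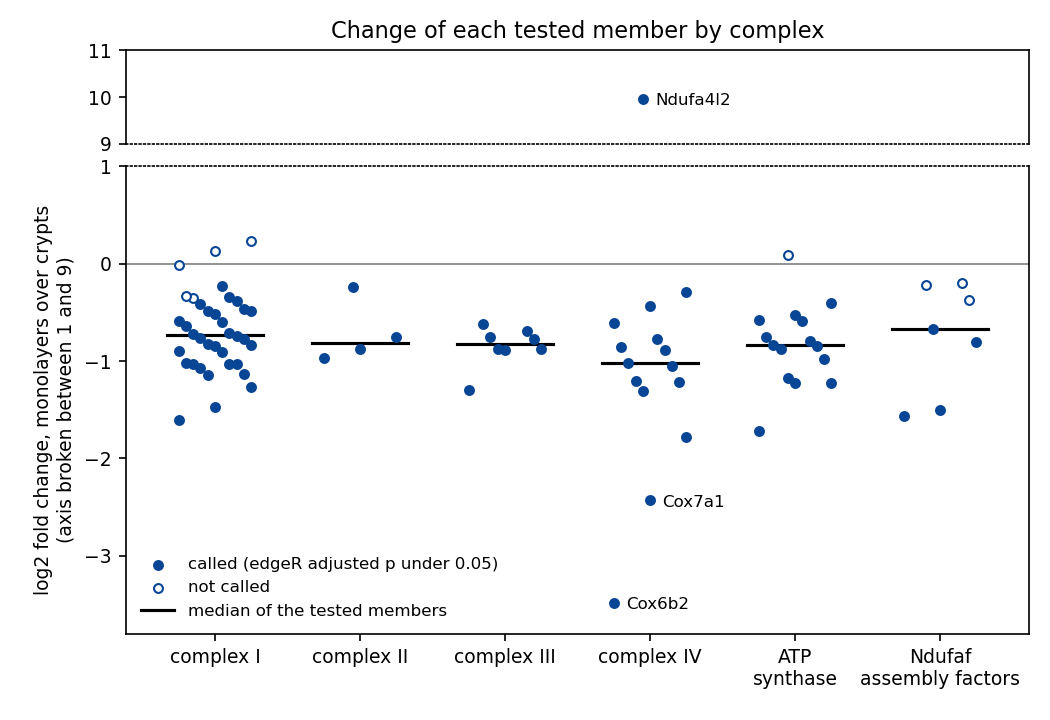
Log2 fold change of monolayers over crypts (y axis, broken between 1 and 9) for each of the tested subunits and Ndufaf assembly factors, grouped by complex (x axis), with filled points called at an edgeR adjusted p under 0.05, open points not called and a line at each median. Nearly all points lie below 0, Cox6b2 and Cox7a1 lie lowest, and Ndufa4l2 stands alone near 10, a fitted value that depends on the prior count because crypts had no count.

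The libraries also separated without a test. For 66 of the 87 tested genes the highest of the 9 monolayer libraries lay below the lowest of the 3 crypt libraries, and for 1 the order was the other way, where 23.2% and 22.7% of all tested genes were so separated. Against crypts, 74 genes were lower and 1 higher at day 3 (background 27.9% and 28.4%). At day 4, 68 were lower and 2 higher (background 28.4% and 28.7%), and at day 5, 72 were lower and 1 higher (background 28.9% and 28.4%). Called lower at all 3 days were 65 genes, with 1 called higher at all 3 days (background 21.2% and 22.6%). The 3 days share the same crypt libraries. Leaving out each library in turn ended the call of 7 of the 77 genes called in monolayers against crypts at least once, namely Cox7a2l, Cox7c, Ndufaf3, Ndufaf5, Ndufs6, Ndufv3 and Sdhc. The other 70 kept theirs throughout.

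Summed over the set, the level was 8527 ± 399 CPM in monolayers and 14861 ± 380.0 CPM in crypts (CPM, library-scaled counts with TMM factors; SD, n = 9 and 3), so that monolayers held 57.4% of the crypt level. Of all counts assigned to genes, the set took 0.758 to 0.871% in monolayer libraries and 1.60 to 1.69% in crypt libraries. Complex I summed to 2276 ± 127 CPM in monolayers and 3816 ± 117 CPM in crypts, or 59.6%. Complex II, the smallest of the 5, summed to 473 ± 51.2 CPM in monolayers and 802 ± 38.1 CPM in crypts, or 58.9%. For complex III the sums were 900.2 ± 59.2 CPM in monolayers and 1600.3 ± 73.4 CPM in crypts, or 56.3%. In these 3 complexes every monolayer library lay below every crypt library. Complex IV summed to 1762 ± 155 CPM in monolayers and 3496 ± 87.8 CPM in crypts, or 50.4%, and the ATP synthase to 3029.8 ± 98.8 CPM in monolayers and 4993 ± 192 CPM in crypts, or 60.7%. The same separation held for both.

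**Figure D2:**
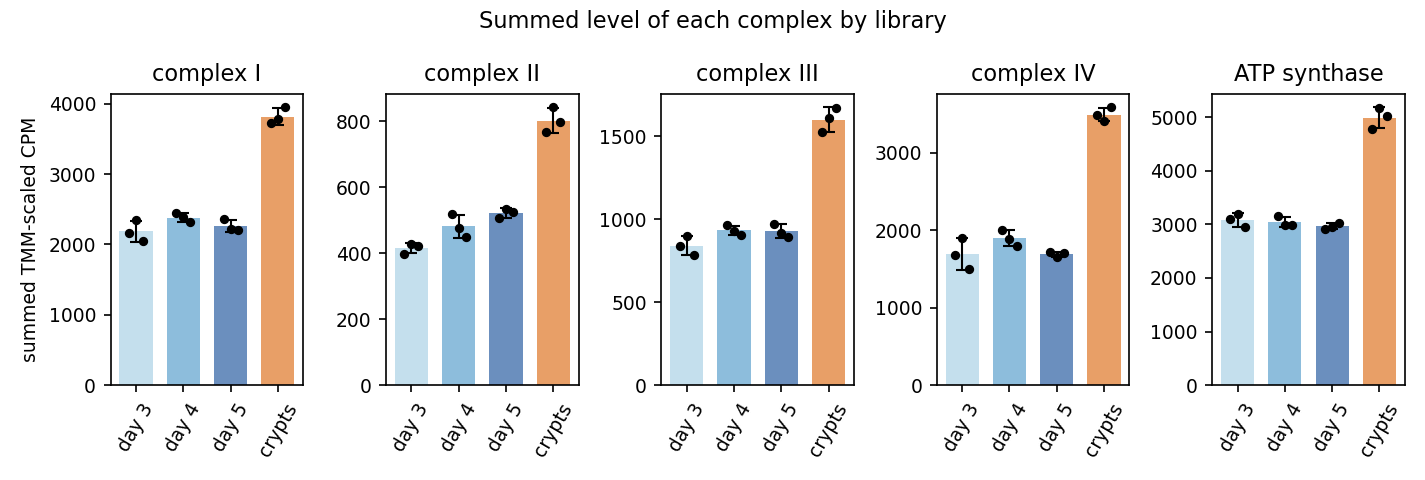
Summed TMM-scaled CPM (y axis, separate scale per panel, from 0) of the subunits of each complex by group (x axis), with bars at the mean, error bars of 1 SD and points for the 3 libraries of each group. In each panel the 9 monolayer libraries lie below the 3 crypt libraries, and the complex II bars stand at 415, 481 and 522 CPM at days 3, 4 and 5.

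The 36 complex I genes encode the NADH-oxidising N module, the quinone-reducing Q module and the membrane arm. In the N module 9 of 10 genes were lower (median log2 fold change -0.48), in the Q module 4 of 5 (median -0.85) and in the membrane arm 18 of 21 (median -0.77). Of all tested genes 32.8% were called lower, and differences between modules were not tested. Ndufv1 encodes the flavin-bearing subunit that takes electrons from NADH, and its level was 59.1, 67.2 and 59.8 CPM on day 3, 72.5, 64.2 and 66.2 on day 4 and 58.1, 60.7 and 65.00 on day 5, against 114, 126 and 116 in crypts. Every monolayer library lay below every crypt library (log2 fold change -0.90 ± 0.08 SE, edgeR adjusted p = 1.41e-08). Ndufs1, the large iron-sulfur subunit of the N module, had 80.02 ± 6.02 CPM in monolayers and 149 ± 10.9 CPM in crypts, a log2 fold change of -0.90.

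In the Q module, Ndufa5, an accessory subunit, had 38.1, 49.6 and 37.2 CPM on day 3, 43.8, 48.4 and 46.6 on day 4 and 52.01, 59.99 and 52.5 on day 5, against 127, 133 and 134 in crypts. It fell 2.77-fold (log2 fold change -1.47 ± 0.09 SE, edgeR adjusted p = 8.55e-11), with no overlap between the groups. Ndufs8 and Ndufs7 carry iron-sulfur clusters near the quinone site. Ndufs8 had a log2 fold change of -1.04 and Ndufs7 one of -0.42, both called. Ndufs3, a core subunit with 16.99 ± 3.31 CPM in monolayers and 21.1 ± 3.67 CPM in crypts, was not called (log2 fold change -0.34 ± 0.16 SE, edgeR adjusted p = 0.0817), but with library totals it was (log2 fold change -0.52, edgeR adjusted p = 0.0101), as it was without crypts replicate 1 (edgeR adjusted p = 0.0331).

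The subunit of complex I with the largest fall was Ndufa1, a small single-span protein of the membrane arm, with 33.9, 38.3 and 23.9 CPM on day 3, 37.5, 35.8 and 35.00 on day 4 and 28.4, 25.2 and 28.6 on day 5, against 109.5, 89.3 and 89.5 in crypts. Its level was 3.03-fold lower in monolayers (log2 fold change -1.60 ± 0.12 SE, edgeR adjusted p = 8.8e-10), and the highest monolayer library stood well below the lowest crypt library. Ndufb10, a membrane-arm subunit that faces the intermembrane space, had 61.2, 56.7 and 57.7 CPM on day 3, 68.6, 60.2 and 74.8 on day 4 and 55.03, 70.5 and 74.5 on day 5, against 143, 153 and 168 in crypts (log2 fold change -1.27 ± 0.09 SE, edgeR adjusted p = 6.97e-10). Again no monolayer library reached the crypt range. Not called in complex I were Ndufa7, Ndufb3, Ndufb4, Ndufs3 and Ndufs5. Ndufa7 averaged 101 ± 17.7 CPM in monolayers and 92.01 ± 14.9 CPM in crypts (edgeR adjusted p = 0.35) and Ndufb3 29.5 ± 4.88 CPM in monolayers and 29.5 ± 6.81 CPM in crypts (edgeR adjusted p = 0.93). Ndufa7 was called higher against crypts at day 4 (log2 fold change 0.38, edgeR adjusted p = 0.029), but not with library totals (log2 fold change 0.20, edgeR adjusted p = 0.224) or without day 4 replicate 1 or 3 or crypts replicate 2 (edgeR adjusted p from 0.0706 to 0.133). With length offsets it was higher in monolayers as a whole (log2 fold change 0.50, edgeR adjusted p = 0.00115).

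Complex II, succinate dehydrogenase, is also an enzyme of the citric acid cycle. Its flavin subunit Sdha had 188, 206 and 211 CPM on day 3, 237, 215 and 193 on day 4 and 242, 265 and 255 on day 5, against 398, 412 and 417 in crypts. The groups did not overlap (log2 fold change -0.88 ± 0.07 SE, edgeR adjusted p = 2.02e-09), and within monolayers the day 5 libraries were the highest. Sdhb, the iron-sulfur subunit, had 60.9, 71.2 and 66.3 CPM on day 3, 83.4, 85.6 and 70.96 on day 4 and 72.97, 79.4 and 85.1 on day 5, against 125, 162 and 153 in crypts (log2 fold change -0.97 ± 0.09 SE, edgeR adjusted p = 2.55e-08). The membrane anchors Sdhc and Sdhd hold the quinone site. Sdhd averaged 83.6 ± 11.3 CPM in monolayers and 139.6 ± 7.10 CPM in crypts (log2 fold change -0.75 ± 0.07 SE, edgeR adjusted p = 3.28e-08). Sdhc averaged 90.4 ± 11.1 CPM in monolayers and 106 ± 13.2 CPM in crypts, and its smaller fall (log2 fold change -0.24 ± 0.09 SE, edgeR adjusted p = 0.0266) was not called at day 4 or day 5. Without crypts replicate 2 the edgeR adjusted p for Sdhc was 0.258, and it also missed the threshold without day 3 replicate 3 or day 4 replicate 2. In CPM per kilobase of exon, a scale on which genes can be set side by side, Sdha averaged 77.1 ± 9.38 in monolayers and 141 ± 3.42 in crypts, Sdhb 65.8 ± 7.67 in monolayers and 128 ± 17.1 in crypts and Sdhd 67.9 ± 9.18 in monolayers and 113 ± 5.77 in crypts. Sdhc stood lowest of the 4 at 28.5 ± 3.49 in monolayers and 33.5 ± 4.15 in crypts. That order depends on the exon lengths used, 3171 bases for Sdhc, 1142 for Sdhb and 1231 for Sdhd. In CPM without division by length, Sdhc was not the lowest in monolayers (90.4, against 83.6 for Sdhd). In crypts it stayed the lowest.

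All 8 complex III genes were lower with no overlap between the groups, and each was called at all 3 days. Of all tested genes 32.8% were called lower, 23.2% were lower without overlap and 21.2% were called lower at all 3 days. With length offsets the day 5 calls against crypts ended for Uqcrh, whose log2 fold change was then 0.12 (edgeR adjusted p = 0.268), and for Uqcrb (-0.21, edgeR adjusted p = 0.0979). Uqcr10, a small subunit, had 55.4, 67.1 and 51.2 CPM on day 3, 67.1, 64.8 and 67.1 on day 4 and 54.8, 59.6 and 58.8 on day 5, against 136, 152 and 159 in crypts. Its log2 fold change was the largest fall of the complex (log2 fold change -1.30 ± 0.09 SE, edgeR adjusted p = 1.68e-10). Uqcrfs1 encodes the Rieske iron-sulfur protein, which passes electrons toward cytochrome c1, and averaged 107 ± 13.2 CPM in monolayers and 198 ± 7.13 CPM in crypts (log2 fold change -0.89 ± 0.09 SE, edgeR adjusted p = 5.05e-08). Uqcrc1, a core subunit with no redox centre, averaged 174 ± 7.52 CPM in monolayers and 321 ± 12.7 CPM in crypts (log2 fold change -0.88). The smallest fall was that of Uqcrh, the hinge protein (log2 fold change -0.62).

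Complex IV has several subunits that exist as tissue or condition isoforms. Cox4i1, the widely expressed form of a regulatory subunit, had 176, 191 and 159 CPM on day 3, 177, 166 and 159.8 on day 4 and 133, 135 and 139 on day 5, against 369, 393 and 416 in crypts. Every monolayer library lay under every crypt library (log2 fold change -1.31 ± 0.07 SE, edgeR adjusted p = 4.88e-12). Cox5b, a zinc-binding subunit, had 56.8, 62.2 and 47.7 CPM on day 3, 50.1, 54.4 and 53.6 on day 4 and 52.4, 50.5 and 49.9 on day 5, against 198, 166 and 183 in crypts, and the groups did not overlap (log2 fold change -1.78 ± 0.08 SE, edgeR adjusted p = 1.22e-12). Cox5a averaged 140.0 ± 20.7 CPM in monolayers and 284 ± 14.95 CPM in crypts (log2 fold change -1.02 ± 0.10 SE, edgeR adjusted p = 3.96e-08), and Cox7b, a small membrane subunit, 192 ± 21.2 CPM in monolayers and 445 ± 66.4 CPM in crypts (log2 fold change -1.22). In CPM per kilobase of exon, Cox6a1 was the highest of the whole set in crypts, with 519.8 ± 57.4 in monolayers and 1074 ± 77.3 in crypts. Cox8a followed with 499.5 ± 56.3 in monolayers and 855 ± 74.3 in crypts. Atp5b, which makes the catalytic subunit of the ATP synthase, had 569 ± 27.2 in monolayers and 818 ± 50.4 in crypts and was the highest in monolayers, although these 3 genes lay within 1 SD of a neighbour there.

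The 1 gene of the set that was higher in monolayers was Ndufa4l2, a paralog of Ndufa4 known to be induced in hypoxia. It had 8.59, 7.89 and 8.49 CPM on day 3, 19.3, 10.1 and 14.2 on day 4 and 19.6, 16.4 and 21.5 on day 5, against 0, 0 and 0 in crypts. In raw counts this was 86 to 224 per monolayer library and none in any of the 3 crypt libraries. With 3 counts in the pooled crypts as a floor (0.126 CPM) it was at least 111-fold higher in monolayers (edgeR adjusted p = 1.05e-09). Its paralog Ndufa4, the subunit that is bound to complex IV in most tissues, moved the other way, with 23.7, 21.2 and 17.4 CPM on day 3, 19.9, 15.1 and 19.9 on day 4 and 12.9, 19.4 and 11.96 on day 5, against 32.6, 44.4 and 46.1 in crypts (log2 fold change -1.21 ± 0.16 SE, edgeR adjusted p = 3.25e-06). Of the 2 paralogs together, per kilobase of exon, Ndufa4l2 made up 21.4 ± 2.84% at day 3, 34.1 ± 4.54% at day 4 and 47.01 ± 9.64% at day 5 (SD, n = 3 each), against 0% in crypts. Within monolayers Ndufa4l2 was higher at day 5 than at day 3 (log2 fold change 1.20 ± 0.28 SE, edgeR adjusted p = 0.00582). The day 4 libraries all lay above the day 3 range, and the highest lay within the day 5 range (day 4 against day 3: edgeR adjusted p = 0.173).

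**Figure D3:**
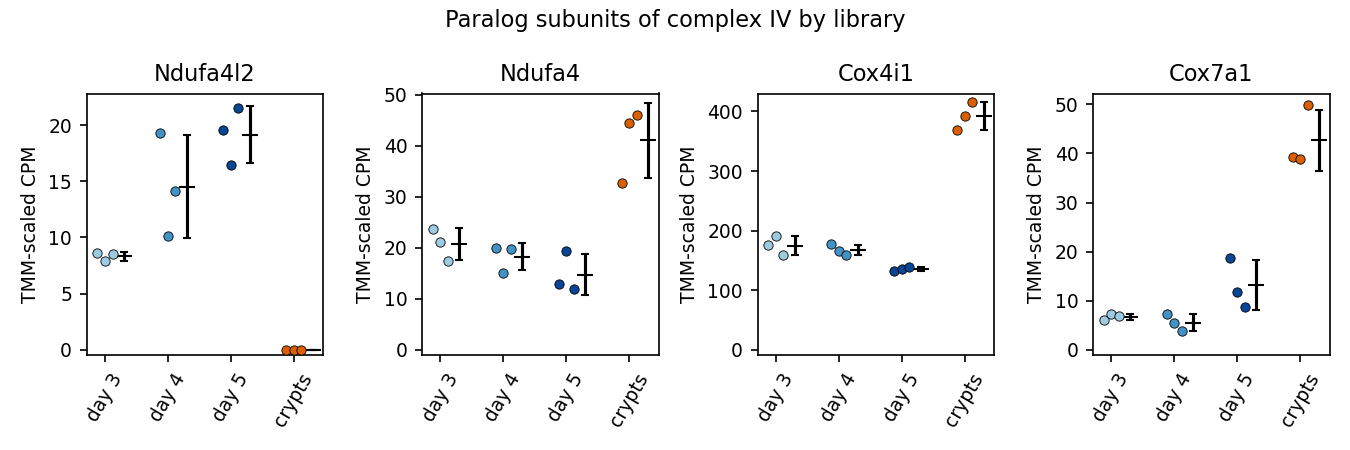
TMM-scaled CPM (y axis, separate scale per panel) of 4 genes placed with complex IV, in each library by group (x axis). The mean and 1 SD stand beside the 3 points of each group. Ndufa4l2 reads 7.89 to 21.5 CPM in monolayers and 0 in crypts, while Ndufa4, Cox4i1 and Cox7a1 lie lower in every monolayer library than in every crypt library.

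The other isoforms known from muscle or testis were low or fell. Cox7a1, the heart and skeletal muscle form, had 6.09, 7.39 and 6.82 CPM on day 3, 7.41, 5.42 and 3.88 on day 4 and 18.7, 11.8 and 8.84 on day 5, against 39.3, 38.9 and 49.9 in crypts (log2 fold change -2.43 ± 0.20 SE, edgeR adjusted p = 3.1e-09). Crypts held all of the high values, and day 5 replicate 1 was the highest monolayer library. Its widely expressed counterpart Cox7a2 averaged 159.6 ± 25.04 CPM in monolayers and 287 ± 8.61 CPM in crypts (log2 fold change -0.85), and Cox7a1 made up 6.13 ± 2.78% of the pair per kilobase in monolayers and 15.5 ± 2.29% in crypts. Cox6b2, the testis form, had 1.30, 0.646 and 0.379 CPM on day 3, 0.345, 1.03 and 2.54 on day 4 and 0, 0.448 and 0.173 on day 5, against 7.21, 9.13 and 5.14 in crypts, and the 3 day 5 libraries held 6 counts in all (log2 fold change -3.48 ± 0.54 SE, edgeR adjusted p = 1.85e-05). Cox6b1 averaged 157 ± 17.01 CPM in monolayers and 238 ± 1.89 CPM in crypts (log2 fold change -0.61). Cox4i2, the lung form, and Cox6a2, another muscle form, did not exceed 0.287 CPM in any monolayer library or 0.401 CPM in any crypt library. Cox7b2, Cox8b and Cox8c had no count in any library. Cox7a2l, which takes part in joining complexes III and IV, averaged 45.3 ± 6.63 CPM in monolayers and 55.2 ± 8.67 CPM in crypts, close to the threshold (log2 fold change -0.29 ± 0.12 SE, edgeR adjusted p = 0.047), and without crypts replicate 3 its edgeR adjusted p was 0.328.

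Markers of muscle and connective tissue cells also differed between the groups. The summed level of 10 fibroblast and smooth muscle markers was 0.799 to 5.04 CPM in monolayer libraries and 14.3 to 88.2 CPM in crypt libraries. Of these, Dcn was at 0 in all monolayer libraries and Acta2 at 0 in all crypt libraries. For 8 heart and skeletal muscle markers the sum was 56.1 to 134 CPM in monolayers and 2.74 to 14.0 CPM in crypts. Acta1, Tnnt2 and Mb rose in monolayers, while Ckm and Actc1 were at 0 in all 12 libraries. The part of these cells in the Cox7a1 and Cox6b2 values was not tested.

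In the ATP synthase, the catalytic F1 head and the rest of the enzyme were both lower. Atp5b, the catalytic beta subunit, had 1143, 1170.5 and 1112 CPM on day 3, 1119.8, 1050.3 and 1083 on day 4 and 1049, 1002 and 1082 on day 5, against 1483, 1672 and 1546 in crypts. All 9 monolayer values lay below the crypt values (log2 fold change -0.52 ± 0.06 SE, edgeR adjusted p = 3.2e-07). Atp5a1, the alpha subunit, averaged 614 ± 31.2 CPM in monolayers and 1099.9 ± 54.2 CPM in crypts (log2 fold change -0.84), and Atp5c1, the rotating gamma subunit, 152 ± 6.95 CPM in monolayers and 227 ± 5.42 CPM in crypts (log2 fold change -0.58). All 5 genes of the F1 head were called lower, as were 32.8% of all tested genes, with a median log2 fold change of -0.58. The other 10 genes had 9 called and a median of -0.90, and the difference between these groups was not tested.

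A trio of genes encodes the same proton-carrying c subunit of the membrane ring with different import sequences. Atp5g1 had 42.04, 47.99 and 29.4 CPM on day 3, 36.6, 45.7 and 34.4 on day 4 and 40.7, 38.7 and 39.2 on day 5, against 115, 142 and 131 in crypts, the largest fall of the enzyme (log2 fold change -1.72 ± 0.12 SE, edgeR adjusted p = 3.56e-10). Atp5g3 averaged 93.3 ± 8.28 CPM in monolayers and 218 ± 6.80 CPM in crypts (log2 fold change -1.22 ± 0.08 SE, edgeR adjusted p = 1.7e-10). Per kilobase of exon it made up 93.2 ± 1.10% of the trio in monolayers and 91.6 ± 0.695% in crypts. That share depends on the exon lengths used, 4912 bases for Atp5g1, 731 for Atp5g2 and 724 for Atp5g3. In CPM without division by length, Atp5g1 stood much nearer to Atp5g3. Atp5g2 stood at 0.968 ± 0.862 CPM in monolayers and 0.812 ± 0.485 CPM in crypts and was not called (edgeR adjusted p = 0.923). Atp5o, which joins the head to the stalk at the side of the enzyme, averaged 81.3 ± 7.39 CPM in monolayers and 189.9 ± 21.1 CPM in crypts (log2 fold change -1.22).

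The 7 Ndufaf genes encode factors that help to build complex I and are absent from the finished enzyme. Of these, 4 were lower and 3 were not called (median log2 fold change -0.67), where 32.8% of all tested genes were called lower. Ndufaf2 had 6.79, 10.2 and 6.67 CPM on day 3, 6.89, 9.16 and 7.63 on day 4 and 7.46, 7.71 and 7.45 on day 5, against 22.6, 24.3 and 22.3 in crypts (log2 fold change -1.57 ± 0.18 SE, edgeR adjusted p = 5.64e-07), and Ndufaf4 averaged 13.9 ± 4.68 CPM in monolayers and 38.4 ± 1.23 CPM in crypts (log2 fold change -1.50 ± 0.18 SE, edgeR adjusted p = 6.36e-07). Both separated the groups without overlap. Ndufaf5 (log2 fold change -0.80, edgeR adjusted p = 0.0091) and Ndufaf3 (-0.67, edgeR adjusted p = 0.014) were called, but without crypts replicate 3 the edgeR adjusted p was 0.0755 for Ndufaf5 and 0.135 for Ndufaf3. Ndufaf1, Ndufaf6 and Ndufaf7 averaged between 6.16 and 12.2 CPM in monolayers and between 7.23 and 15.9 CPM in crypts. Atp5sl fell (log2 fold change -0.999 ± 0.17 SE, edgeR adjusted p = 5.11e-05), and Atp5s was not called (log2 fold change 0.46, edgeR adjusted p = 0.289).

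Promoters of the set are shown because the genes moved together and because factors that act on many of them bind known short motifs. In RefSeq sequences of build GRCm38.p6 (mm10), 76 of the 92 genes had a promoter on a chromosome used here, taken as 250 bases before to 50 bases after a start site. The build behind the counts is not known, so these coordinates belong to the RefSeq sequences alone. Only the 250 bases before the start are printed, 5′ to 3′ on the gene's strand, for 4 genes chosen after their values were seen. Ndufa5 and Cox5b were among the largest falls of their complexes, Sdha had the most matches to the NRF1 core among the genes printed, and Cox6a1 had the highest crypt level per kilobase. Capitals mark matches on either strand to the NRF1 core CGCNTGCG or to the ETS core CCGGAAG bound by GABP.
Ndufa5, chr6:24527691-24527940, minus strand: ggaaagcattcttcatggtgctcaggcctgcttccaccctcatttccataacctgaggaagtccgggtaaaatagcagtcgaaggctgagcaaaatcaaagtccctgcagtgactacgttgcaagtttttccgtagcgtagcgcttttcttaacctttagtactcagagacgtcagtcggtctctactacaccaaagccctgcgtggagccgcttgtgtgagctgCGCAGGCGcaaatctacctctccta
Sdha, chr13:74350241-74350490, minus strand: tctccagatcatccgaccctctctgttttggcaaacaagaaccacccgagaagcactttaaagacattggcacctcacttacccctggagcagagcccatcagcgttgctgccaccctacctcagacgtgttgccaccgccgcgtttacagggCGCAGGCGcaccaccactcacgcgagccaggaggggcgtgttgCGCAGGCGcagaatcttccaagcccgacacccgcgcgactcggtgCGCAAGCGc
Cox6a1, chr5:115348959-115349208, minus strand: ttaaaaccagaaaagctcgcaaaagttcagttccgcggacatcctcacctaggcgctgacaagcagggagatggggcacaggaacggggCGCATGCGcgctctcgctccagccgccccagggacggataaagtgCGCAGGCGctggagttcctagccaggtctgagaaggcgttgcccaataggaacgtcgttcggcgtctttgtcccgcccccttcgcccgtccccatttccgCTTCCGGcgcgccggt
Cox5b, chr1:36691237-36691486, plus strand: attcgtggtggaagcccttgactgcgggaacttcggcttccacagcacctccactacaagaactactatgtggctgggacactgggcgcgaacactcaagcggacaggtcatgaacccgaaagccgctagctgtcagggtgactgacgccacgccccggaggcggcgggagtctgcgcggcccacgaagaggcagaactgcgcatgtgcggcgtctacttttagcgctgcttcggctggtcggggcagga

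The Ndufa5 stretch holds 1 match, which begins 25 bases before the start. Sdha holds 3, at 97, 54 and 9 bases before the start, and Cox6a1 holds 3, of which that nearest the start is the ETS core. Neither core occurs in the Cox5b stretch, and no matches overlap in the stretches printed. Over the whole windows of promoter sequence, the NRF1 core occurred in 25 of the 66 tested subunits with a promoter (37.9%), where 19.2% of tested genes with a promoter and 8.21% of all 32851 promoters held it. The ETS core occurred in 16 (24.2%, against 20.01% of tested genes and 8.86% of all promoters). A YY1 core, AAGATGGC, occurred in 10 (15.2%, against 5.24% and 2.75%), and the core of the oestrogen-related receptor site, CAAGGTCA, in 4 (6.06%, against 1.31% and 1.56%). Subunits with the NRF1 core had a median log2 fold change of -0.75 and the 41 without it -0.83. A match is a run of letters and says nothing on binding.

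Changes between the monolayer days were few, and with TMM scaling alone their counts were near or below the background. At day 4 against day 3, 2 of the 87 tested genes were higher (background 1.59%), Ndufa6 and Sdhd. None was lower by edgeR, where 1 had an unadjusted p under 0.05 and DESeq2 called 0 (background 1.17%). At day 5 against day 4, Ndufs8 and Cox4i1 were lower (background 4.2%) and Cox7a1 was higher (background 3.36%). At day 5 against day 3, 2 genes were lower (background 10.5%), again Ndufs8 and Cox4i1, and 11 were higher (background 9.9%). The 11 were Ndufa4l2, Cox7a1, Atp5sl, Ndufa6, Uqcrh, Atp5j2, Ndufa5, Ndufs7, Sdha, Sdhc and Sdhd. Left out 1 at a time, single libraries brought the 11 down to as few as 5, the lowest without day 3 replicate 1. With offsets for gene length, 24 of 87 genes (27.6%) were higher at day 5 against day 3, where 9.98% of all tested genes were, and 7 (8.05%) were higher at day 5 against day 4, where 3.25% of all tested genes were. The counts of higher genes thus lay above the background under that setting. Absorptive colonocyte markers also rose between day 3 and day 5, with 7 of 8 called higher. Their part in these changes was not tested.

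For complex II, the summed level was 415 ± 15.7 CPM at day 3, 481 ± 35.1 at day 4 and 522 ± 15.2 at day 5, against 802 ± 38.1 in crypts. At day 5 against day 3, 3 of its 4 genes were called higher, where 9.9% of all tested genes were. The calls of Sdha and Sdhc did not hold when some single libraries were left out. Sdha was higher at day 5 than at day 3 (log2 fold change 0.33 ± 0.09 SE, edgeR adjusted p = 0.0111), but not without day 3 replicate 1 (edgeR adjusted p = 0.0727) or day 5 replicate 2 (edgeR adjusted p = 0.0597). Sdhd had 66.4, 72.8 and 67.5 CPM on day 3, 94.5, 92.9 and 87.6 on day 4 and 90.9, 89.4 and 90.1 on day 5, against 140.0, 147 and 132 in crypts, and its day 4 and day 5 libraries all exceeded those of day 3. Day 4 against day 3 was called (log2 fold change 0.41 ± 0.09 SE, edgeR adjusted p = 0.0172), but not without day 3 replicate 1 or 3 or without day 4 replicate 1 or 2 (edgeR adjusted p from 0.0713 to 0.115). Sdhc was called at day 5 against day 3 (log2 fold change 0.34 ± 0.11 SE, edgeR adjusted p = 0.0371), but without any 1 of the 3 day 3 or 3 day 5 libraries, or without day 4 replicate 3, its edgeR adjusted p was 0.0533 to 0.124. Ndufa6, an accessory subunit of complex I, had 133, 152 and 139 CPM on day 3, 221, 230.2 and 192 on day 4 and 249.6, 231 and 217 on day 5, against 267, 253 and 276 in crypts. Its day 3 libraries were the lowest, and day 5 stood above day 3 (log2 fold change 0.72 ± 0.09 SE, edgeR adjusted p = 1.83e-05). At day 5 it was no longer called against crypts (log2 fold change -0.19, edgeR adjusted p = 0.0829), although with DESeq2 it was (adjusted p = 0.0331), and with length offsets its log2 fold change was 0.24 (edgeR adjusted p = 0.0316).

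In the other direction, Ndufs8 had 52.6, 64.5 and 51.7 CPM on day 3, 56.6, 56.6 and 59.1 on day 4 and 32.1, 38.3 and 46.8 on day 5, against 115, 99.8 and 94.8 in crypts. The day 5 libraries were the lowest (log2 fold change -0.55 ± 0.14 SE, edgeR adjusted p = 0.0188 at day 5 against day 4), and this call ended without day 4 replicate 2 or 3 or day 5 replicate 1 or 2 (edgeR adjusted p from 0.061 to 0.0767). The Ndufs8 call at day 5 against day 4 also ended with length offsets. Cox4i1 was also lowest at day 5 (log2 fold change -0.37, edgeR adjusted p = 0.00588 at day 5 against day 3). Its call against day 4 ended without day 3 replicate 1 or any 1 of the 6 libraries compared (edgeR adjusted p from 0.0594 to 0.143), and with length offsets neither call held (edgeR adjusted p = 0.286 against day 3 and 0.724 against day 4). Cox7a1 was higher at day 5 than at day 4 (log2 fold change 1.21 ± 0.28 SE, edgeR adjusted p = 0.0115), but without day 5 replicate 1 the log2 fold change was 0.89 and the edgeR adjusted p 0.0551, and the call also ended without day 4 replicate 2 or 3. Uqcrh was higher at day 5 than at day 3 (log2 fold change 0.45 ± 0.10 SE, edgeR adjusted p = 0.00441), as was Atp5sl (log2 fold change 0.92, edgeR adjusted p = 0.00641), although not without day 5 replicate 2 (edgeR adjusted p = 0.0506).

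**Figure D4:**
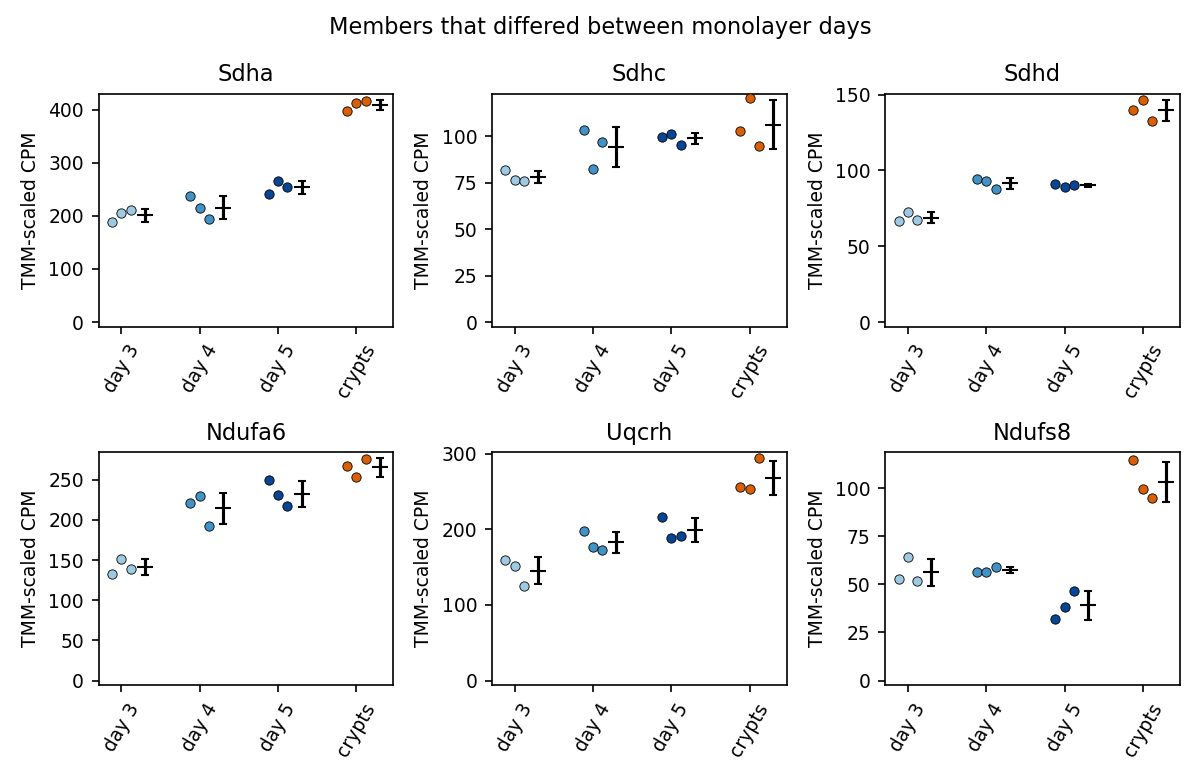
TMM-scaled CPM (y axis, separate scale per panel) of 6 genes called between monolayer days, in each library by group (x axis), with the mean and 1 SD beside the points. Sdha, Sdhc, Sdhd, Ndufa6 and Uqcrh have their lowest mean at day 3, and Ndufs8 stands lowest at day 5 with 32.1 to 46.8 CPM, against 94.8 to 115 CPM in crypts.

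Genes around the chain were counted by lists, to be read beside the 32.8% lower and 30.7% higher of all tested genes. Of 20 genes of the citric acid cycle and pyruvate dehydrogenase, 18 were lower in monolayers and the other 2 were not called (median -0.67). Among them Idh2, the mitochondrial NADP-linked isocitrate dehydrogenase, had 36.6 ± 14.4 CPM in monolayers and 118 ± 4.30 CPM in crypts (log2 fold change -1.81 ± 0.11 SE, edgeR adjusted p = 8.51e-11). Suclg1, a subunit of succinyl-CoA ligase, had a log2 fold change of -1.55, and Mpc2, a subunit of the pyruvate carrier, one of -1.59. Of 18 electron carriers and coenzyme Q synthesis genes, 13 were lower and 1 higher (median -0.88). Pdss1 and Pdss2 make the side chain of coenzyme Q. Pdss1 had 5.22 ± 2.10 CPM in monolayers and 60.6 ± 8.79 CPM in crypts (log2 fold change -3.59 ± 0.17 SE, edgeR adjusted p = 1.3e-12), and Pdss2 had a log2 fold change of -2.03. Cycs, cytochrome c, fell (log2 fold change -1.66 ± 0.23 SE, edgeR adjusted p = 3.84e-06). Coq10b, a coenzyme Q-binding protein, rose (log2 fold change 1.15 ± 0.20 SE, edgeR adjusted p = 5.75e-05).

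Assembly factors outside the symbol rule were lower in 19 of 39 cases and higher in 2 (median -0.52). The heme A synthesis enzyme Cox10 had 12.2 ± 2.48 CPM in monolayers and 41.7 ± 4.57 CPM in crypts (log2 fold change -1.80 ± 0.14 SE, edgeR adjusted p = 1.68e-09), and the copper chaperone Sco1 and the complex IV factor Cox20 had log2 fold changes of -1.59 and -1.43. Cmc1, another complex IV factor, rose (log2 fold change 0.81), and so did Timmdc1, a complex I factor (log2 fold change 0.44), although not with library totals (edgeR adjusted p = 0.165). Mitochondrial ribosomal protein genes were lower in 34 of 76 cases and higher in 4 (median -0.33). For import proteins, chaperones and carriers the counts were 14 lower and 4 higher of 24 (median -0.41). The ADP/ATP carrier genes moved apart, with Slc25a5 at 356 ± 17.3 CPM in monolayers and 902 ± 12.5 CPM in crypts (log2 fold change -1.34 ± 0.06 SE, edgeR adjusted p = 2.28e-13). Slc25a4, the form known from heart and muscle, had 95.2, 99.2 and 98.1 CPM on day 3, 85.8, 88.9 and 95.2 on day 4 and 50.8, 63.1 and 60.3 on day 5, against 21.03, 19.7 and 22.01 in crypts (log2 fold change 1.93 ± 0.10 SE, edgeR adjusted p = 1.11e-11). Its 9 monolayer libraries all exceeded the crypt libraries.

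Among 18 regulators of mitochondrial biogenesis, 12 were lower and 3 higher (median -0.64). Ppargc1b, a coactivator of respiratory genes, had 27.05 ± 8.51 CPM in monolayers and 115 ± 12.5 CPM in crypts (log2 fold change -2.13 ± 0.12 SE, edgeR adjusted p = 2.33e-11). Ppargc1a, its relative, had 27.1, 30.6 and 35.2 CPM on day 3, 55.5, 66.7 and 47.1 on day 4 and 90.5, 88.9 and 72.4 on day 5, against 128, 96.3 and 108 in crypts (log2 fold change -1.07 ± 0.11 SE, edgeR adjusted p = 1.6e-07). Day 3 libraries were the lowest and day 5 libraries came nearest to crypts. Tfb2m, a mitochondrial transcription factor, fell (log2 fold change -0.93). Yy1, Gabpb1 and Gabpa, of which Gabpa encodes the DNA-binding subunit of GABP, rose with log2 fold changes of 0.82, 0.54 and 0.36. With library totals the calls of Gabpb1 (log2 fold change 0.36, edgeR adjusted p = 0.0504) and Gabpa (0.18, edgeR adjusted p = 0.156) ended, and that of Gabpa also ended without crypts replicate 3 (edgeR adjusted p = 0.0500315).

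A list of 15 genes linked to hypoxia, not all of which act on respiration itself, held 10 higher and 4 lower genes (median log2 fold change 1.99). Slc16a3, a lactate exporter, had 124 ± 12.3 CPM in monolayers and 1.73 ± 0.391 CPM in crypts (log2 fold change 6.12 ± 0.16 SE, edgeR adjusted p = 5.8e-16). Bnip3, which acts in the removal of mitochondria, had 344 ± 33.5 CPM in monolayers and 6.81 ± 3.84 CPM in crypts (log2 fold change 5.77 ± 0.19 SE, edgeR adjusted p = 1e-14), and Egln3, an oxygen-sensing prolyl hydroxylase, a log2 fold change of 4.99. The 4 lower genes were Pdk3, Atpif1, Hif1a and Higd2a, of which Higd2a was not called with length offsets (edgeR adjusted p = 0.361). Hif1a itself averaged 111 ± 16.6 CPM in monolayers and 166 ± 15.6 CPM in crypts (log2 fold change -0.59). Atpif1, the inhibitor protein of the ATP synthase, averaged 268 ± 34.5 CPM in monolayers and 407 ± 46.4 CPM in crypts (log2 fold change -0.61), and Pdk3, a pyruvate dehydrogenase kinase, 11.95 ± 6.78 CPM in monolayers and 33.3 ± 9.22 CPM in crypts (log2 fold change -1.66). The lists were drawn up with earlier results of these data known, so their directions are descriptions.

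**Figure D5:**
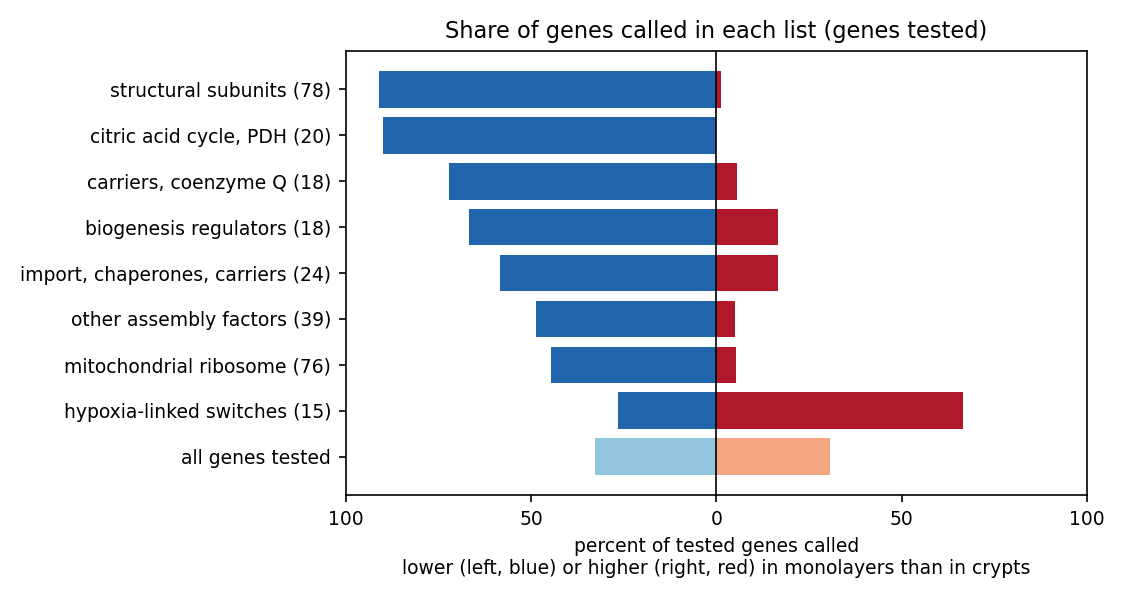
Percent of tested genes (x axis) called lower, to the left, or higher, to the right, in monolayers than in crypts, for the structural subunits and 7 lists of related genes, with all tested genes at the bottom (number tested in brackets). The bar for structural subunits reaches 91.0% to the left, that of the citric acid cycle 90% and that of all genes 32.8%, while the hypoxia-linked list extends mainly to the right.

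Some values in the set rest on few or uncertain reads. Reads with no unique alignment were set apart by the authors' counter, and 18 of the 92 genes have at least 10% of their transcript within stretches at least 97% identical to another transcript. Of these 18, 14 were lower, where 32.8% of all tested genes were. The other 4, Atp5g2, Ndufb4, Ndufs3 and Ndufs5, were not called. Cox5b, Cox4i1, Atp5g1 and Atp5o also belong to the 18, so their levels are uncertain. Among the 69 tested genes under 10%, 62 were lower and 1 higher (background 32.8% and 30.7%), with a median log2 fold change of -0.80. The genes are also short, with a median of 1046 exon bases, where the median of tested genes was 3246. Tested genes of at most 1500 exon bases had a median log2 fold change of -0.16. When a smooth trend of level on gene length was removed from each library, the median of the set was -0.66, 70 of the 77 calls were kept and 7 ended. Those 7 were Cox7a2l, Cox7c, Ndufa2, Ndufb6, Ndufc2, Ndufs6 and Ndufv3, and Ndufa7 became higher.

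The genes outside the set whose levels ran most like its mean over the 12 libraries were Atp6ap2, Creg1, 2010107E04Rik, Bcl2l14 and Ociad2, with Pearson correlations of 0.990, 0.990, 0.988, 0.986 and 0.983 to the mean z-score of the tested structural subunits. The points fall into a crypt and a monolayer cluster. Atp6ap2, an accessory protein of the vacuolar proton pump, had 35.7 ± 3.99 CPM in monolayers and 116 ± 9.81 CPM in crypts. Creg1 had 6.27 ± 1.49 CPM in monolayers and 35.6 ± 6.26 CPM in crypts, and Ociad2 had 36.2 ± 6.18 CPM in monolayers and 149 ± 23.3 CPM in crypts.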

How the data were processed

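RNA-seq of 12 libraries was used, grouped by the labels. The values are whole-number counts per gene deposited by the authors, 1 file per library, with no normalization, in which 5 summary lines of the counter stayed out of library sizes and tests. Reads with no unique alignment were 14.2 to 18.3% of all reads in monolayers and 18.5 to 19.2% in crypts. The tools were CASAVA 1.9, TopHat2 and HTSeq, per the submitters' processing notes, which name the builds mm9 and mm10 without a role. Per the labels' protocols, RNA was extracted with an RNAqueous Micro kit. Annotation and strand setting: not given in the sources used here; hence reads of overlapping genes cannot be told apart.

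The test was the quasi-likelihood test of edgeR 4.0.16 under R 4.3.3: filterByExpr by group (minimum count 10, leaving 12863 genes), TMM factors (0.910 to 1.12), glmQLFit and glmQLFTest in 1 fit of all 12 libraries, and Benjamini-Hochberg adjustment over all genes. Calls are at an adjusted p under 0.05. Monolayers (the mean of the 3 days) and each single day were set against crypts, and the days against each other. Standard errors were taken from the fold change and F. Levels are TMM-scaled CPM with their SD. The procedure was also run on simulated counts in which far fewer genes changed than were called here. That run therefore does not test the TMM scaling in these data. Fit alternatives were other scalings and filters, DESeq2 1.42.0, offsets for gene length, a replicate block and leaving out each library. Lengths are exon unions of GENCODE M21, known for 99.2% of tested genes; near-identical copies were sought with BLAST+ 2.17.0 over at least 75 bases. Counting error alone is covered by floors of 3 counts.

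Genes named are up to 3 called with the largest change each way per complex (mean of at least 8 CPM, no overlap), core and isoform subunits, all Ndufaf genes, up to 5 called each way between days and up to 3 each way per list. Genes named beyond this were named after their values were seen. Some genes that the rule would name are not reported here. The set and the lists were chosen with earlier results of these data known.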

Additional observations from a re-analysis of the deposited data

How the results depend on the processing

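The 77 calls of monolayers against crypts were all kept with RLE, upper quartile or library-total scaling, no filter, a minimum count of 50 (85 genes compared) and DESeq2. Lower calls ranged from 70 to 76 when single libraries were left out, and higher calls stayed at 1. Against crypts the same range was 66 to 74 lower and 1 higher at day 3, 62 to 69 lower and 1 to 2 higher at day 4, and 66 to 73 lower and 1 higher at day 5. For day 4 over day 3 it was 0 lower and 1 to 2 higher, for day 5 over day 4 it was 0 to 3 lower and 0 to 1 higher, and for day 5 over day 3 it was 1 to 3 lower and 5 to 11 higher. With length offsets 2 genes were higher in monolayers than in crypts, 3 at day 5 against crypts, 7 at day 5 against day 4 (0 lower) and 24 at day 5 against day 3 (1 lower). Named genes that changed direction under length offsets were Uqcr10 (0.34 with and without the replicate block, day 5 against day 3), Ndufa6 (0.24 with and without the block), Uqcrh (0.12 with and without the block), Ndufa7 (0.56 with and without the block) and Higd2a (0.019 without the block and 0.017 with it), all at day 5 against crypts, and Atpif1 (0.28, day 5 against day 3), all in log2. At day 4 against crypts, library totals left 1 higher gene (Ndufa7 was lost), as did requiring an absolute log2 fold change of at least 0.58. At day 4 against day 3 there were 4 higher genes with DESeq2, 6 with only the groups compared and 1 with the fold requirement. At day 5 against day 4 there were 4 lower genes with no filter and 0 with the fold requirement, and at day 5 against day 3 there were 0 lower and 4 higher with it. The cause was not tested. Fitting only the groups compared is the same fit as the 12 libraries for monolayers against crypts. Of the other values of named genes, 13776 kept direction and side of the threshold, 300 fell short of it and 110 newly passed it. In the shallowest monolayer library, with 5456913 gene counts, a floor of 3 counts was 0.550 CPM, so Atp5g2, Ndufs5 and Cox6b2 rest on few counts.

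Libraries with the same number showed no clear pairing. Correlations of their deviations were -0.03 to 0.06 over 18 pairs (median -0.006). Between libraries of other numbers they were -0.08 to 0.03 over 36 pairs (median -0.001). The highest was that of day 4 and day 5 replicate 1, and 6 of 12 libraries were closest to their own number. The replicate block ended 1 of the 77 calls, Cox7a2l, and left 1 lower gene at day 5 against day 4. Replicate block and length offsets together gave 2 higher genes in monolayers, 3 at day 5 against crypts, 6 at day 5 against day 4 (0 lower) and 24 at day 5 against day 3 (0 lower).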
